A study of Mus musculus with 12 samples.

Results

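The genes described here are transcription factors, and a few cofactors, that give neurons of the forebrain their identity. They were measured in mRNA recovered from active neurons of the basolateral amygdala (BLA), a region that learns about rewarding and aversive events. The members were listed by gene symbol, 42 in all, and 41 of them had at least 1 probe set of that symbol on the array, out of 20752 genes with a probe set of their own. Etv1 had no probe set of its own, because its probe sets carry a further symbol in the authors' table. Those 41 genes had 137 of the 45037 probe sets. A probe set is a group of short probes that together read 1 stretch of a transcript, and for each gene the probe set of highest mean signal stands for it, called the representative below. Of the 41 representatives, 40 lay above the filter on dim signal and were tested.

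The study used 2 groups of mice, one given footshocks (shock) and one exposed to a female mouse (female). In both groups the fos promoter, which neuronal activity switches on, drove a FLAG-tagged PABPC1 in the BLA. PABPC1 sits on the poly(A) tails of mRNA, and RNA was taken by immunoprecipitation of the tag. Each group had 3 Affymetrix mouse expression arrays. The design note speaks of pools of 2 mice per sample and of 3 mice per group, and does not settle whether arrays of a group share mice, so p-values measure the spread between arrays, which may be technical. The strain, sex and age of the mice and the timing are not given in the labels. No group without a stimulus is among the samples, so every value compares shock with female. Values are on the log2 scale as the authors' RMA summary gives them (RMA is a background-corrected, normalized summary of the probes), n is 3 arrays per group throughout, and this number limits the precision.

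Transcription factors of this kind work by binding DNA near the genes of a neuronal class and holding them on or off. In the amygdala the basolateral nuclei hold mostly glutamatergic neurons of pallial origin, whose lineage uses factors such as Tbr1, Emx1 and the Neurod genes. Their GABAergic interneurons, the intercalated cell masses and the neighbouring central nucleus come from the subpallium, where Dlx genes, Meis2, Tshz1 and Foxp2 are used. Many of them stay on in mature neurons.

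Female replicate 2 stood apart, with correlations of 0.978 to 0.981 with the shock arrays across probe sets, against 0.991 to 0.994 for the other female arrays. It was the lowest of the 6 arrays for 24 of the 40 tested members (60%), against 44.7% of all genes tested. The 5' minus 3' signal of an array is the typical gap between probe sets at the start and at the end of a transcript, taken as a median, and was -1.02, -0.88 and -0.96 in shock and -0.77, -0.50 and -0.78 in female replicates 1 to 3, so this measure of RNA integrity and labelling did not overlap between the groups. The 3' minus 5' gap of the Gapdh control probe sets was 4.51, 4.14 and 4.64 in shock and 3.36, 2.52 and 3.13 in female. These values did not overlap either. Neither measure's part in the results was tested, and the fits below that include the 5' minus 3' signal cannot separate it from group. All 4 general neuronal markers passed the filter, as did all 5 glutamatergic and all 6 GABAergic markers. Glial markers also passed it, with 5 of 5 for astrocytes, 5 of 5 for oligodendrocytes and 4 of 5 for microglia, and no marker was at 0 on any array.

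Of the 40 tested members, 7 were higher in shock, none was higher in female and 33 did not pass (limma, Benjamini-Hochberg adjusted p under 0.05 over 27022 probe sets). The 7 were Tshz1, Zfpm2, Eya1, Foxp2, Dach1, Rorb and Neurod1. That share of 17.5% stood beside 20.0% of all 13203 genes tested, so members were called about as often as other genes. By direction, 10.6% of all genes passed towards shock and 9.40% towards female. At an unadjusted p under 0.05, 14 members were higher in shock and 2 in female. The share of all genes at that threshold was not counted, here, in the fits below or in the authors' table. Such counts therefore cannot be read as particular to the members. The median difference, shock minus female, was 0.27 over the members and 0.06 over all genes tested. It was positive in 30 members and in 57.7% of all genes. Without female replicate 2 the medians were 0.15 and 0.03. Groups did not overlap for 17 members, or 42.5%, against 48.7% of all genes. In 15 of them shock was higher and in 2 female, against 28.7% and 20.0% of all genes.

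**Figure D1:**
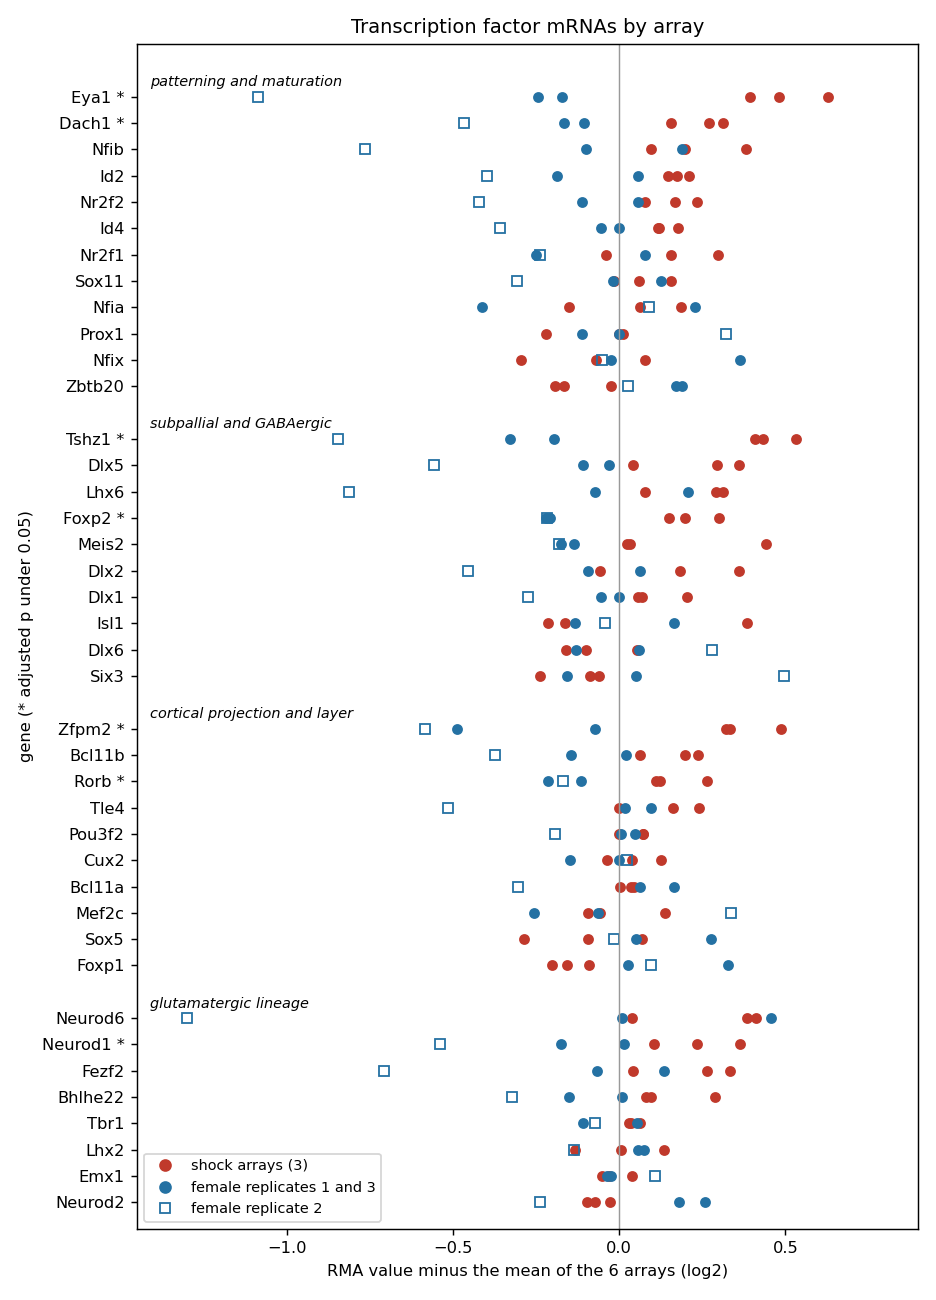
RMA value of each of the 40 tested genes on each array, as the difference from the mean of its 6 arrays (log2, x axis), in the 4 groups by role. Shock arrays are red circles, female replicates 1 and 3 blue circles, and female replicate 2 an open square, which lies lowest in 24 of the 40 genes.

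The call of each gene rested on few arrays. Without shock replicate 1 no member was called by limma (at an unadjusted p under 0.05, 14 were higher in shock and 1 in female), and 1.17% of all genes were. Without shock replicate 2 there were 3 calls (Foxp2, Tshz1 and Zfpm2) and 4.96% of all genes, and without shock replicate 3 there were 2 (Tshz1 and Zfpm2) and 4.48%. Leaving out female replicates 1, 2 and 3 gave 14, 8 and 5 called members, beside 24.6%, 20.2% and 12.6% of all genes. Without female replicate 2, Neurod1 was not called, and Neurod2 and Zbtb20 were called higher in female. On the MAS5 values of the same arrays, another summary of the probes, limma called no member (at an unadjusted p under 0.05, 8 were higher in shock and none in female) and 1.95% of all genes. The median difference of the members was 0.18 there. In the authors' deposited table no probe set of any gene had an FDR under 0.05, the lowest FDR was 0.0810, and 9 of the 41 members had an unadjusted p under 0.05.

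Factors of the glutamatergic lineage came out as follows. Of 8 tested genes, 1 was higher in shock and 7 did not pass, with a median difference of 0.20 (0.06 without female replicate 2). Neurod1 is a basic helix-loop-helix factor of neuronal differentiation. Positions given here are those where the authors' table, which names no genome build, aligns the representative probe set, and need not span the gene. For Neurod1 this is chromosome 2, 79452520 to 79456718, minus strand. Its values were 9.48, 9.35 and 9.22 in shock and 9.13, 8.57 and 8.94 in female. Every shock array lay above every female array, by a small margin from female replicate 1. The difference was 0.47 (SE 0.15, limma adjusted p = 0.0472), it was 0.31 without female replicate 2, and it stayed called in 1 of the 6 leave-one-out fits. A further probe set of Neurod1 was at 0.51 (adjusted p = 0.0798).

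Neurod2, a related factor that matures cortical and amygdalar excitatory neurons, was higher in female at the upstream of its probe sets. The representative read 10.26, 10.22 and 10.19 in shock and 10.47, 10.05 and 10.55 in female, a difference of -0.13 (adjusted p = 0.479). The probe set that ends 1112 bases further upstream read 8.49, 8.81 and 8.60 in shock and 9.50, 9.11 and 9.19 in female. There all female arrays lay above all shock arrays, with a difference of -0.64 (SE 0.13, limma adjusted p = 0.0147). The brighter probe set was itself called without female replicate 2, at -0.28 (adjusted p = 0.0463). Neurod6, also of that family and a marker of pallial projection neurons, read 9.16, 8.82 and 9.19 in shock and 9.23, 7.48 and 8.78 in female. Female replicate 2 alone was low, and the difference of 0.56 (adjusted p = 0.261) was 0.05 without it.

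The promoters of Neurod1 and Neurod2, whose called probe sets pointed in opposite directions, are shown for context, as the 250 bases before the start in RefSeq (GRCm38.p6, 5' to 3', minus strand for both). They are Neurod1 at chr2:79456637-79456886 and Neurod2 at chr11:98329646-98329895. Capitals mark TGACG, the core of the cAMP response element that activity-regulated factors can bind, and the E-box letters CAGNTG, on either strand.
Neurod1: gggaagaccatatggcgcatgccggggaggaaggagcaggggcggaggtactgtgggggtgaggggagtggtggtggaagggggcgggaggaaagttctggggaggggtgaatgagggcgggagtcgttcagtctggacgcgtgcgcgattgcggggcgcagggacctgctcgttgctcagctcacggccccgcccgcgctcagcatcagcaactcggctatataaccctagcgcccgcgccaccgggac
Neurod2: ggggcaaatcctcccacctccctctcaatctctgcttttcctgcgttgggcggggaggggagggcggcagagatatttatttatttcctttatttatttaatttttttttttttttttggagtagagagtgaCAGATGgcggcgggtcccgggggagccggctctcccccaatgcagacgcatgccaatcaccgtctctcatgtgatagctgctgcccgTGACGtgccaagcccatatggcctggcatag
Neurod1 holds neither run of letters and Neurod2 holds both once. Of 33 members with a promoter in the RefSeq table, 5 held TGACG and 11 held CAGNTG, beside 17.8% and 44.8% of 32841 promoters of the same length. The full element TGACGTCA was in none of the 33 (1.55% of all promoters), and the AP-1 letters TGANTCA were in 3 (6.75% of all). The called genes with a promoter there were Neurod1, Rorb and Dach1, and none held any of these letters in the window searched. Rorb has 2 listed promoters, of which only the first was searched.

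Other genes of this lineage did not pass. Bhlhe22, which helps specify projection neurons of the cortex, read 10.12, 10.31 and 10.10 in shock and 10.03, 9.70 and 9.87 in female. The groups did not overlap, and the difference was 0.31 (SE 0.12, adjusted p = 0.0816). Fezf2, which sets subcortical projection identity, read 8.58, 8.81 and 8.87 in shock and 8.67, 7.83 and 8.47 in female. Its groups overlapped, and the difference of 0.43 (SE 0.19, adjusted p = 0.129) was 0.18 without female replicate 2. Tbr1, the T-box factor of glutamatergic neurons, was 9.03, 9.06 and 9.03 in shock and 9.05, 8.93 and 8.89 in female. The difference of Tbr1 was 0.09 (adjusted p = 0.525), that of Emx1, a pallial homeobox gene, -0.03 (0.832) and that of Lhx2, a LIM homeobox gene, 0.0046 (0.979).

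Genes of cortical projection classes and layers gave 2 calls in 10 tested, both higher in shock, with a median difference of 0.09 (0.10 without female replicate 2). Zfpm2, a cofactor of GATA factors that also marks deep cortical projection neurons, has its representative aligned to chromosome 15 (40655034 to 41104587, plus strand). It read 8.07, 8.24 and 8.09 in shock and 7.68, 7.17 and 7.26 in female. All shock arrays lay above all female arrays, by 0.76 on average (SE 0.14, limma adjusted p = 0.0102). The difference was 0.66 without female replicate 2, and Zfpm2 stayed called in 5 of the 6 leave-one-out fits.

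Rorb, a nuclear receptor gene of the middle cortical layer, has its representative aligned to chromosome 19 (18930612 to 18931380, minus strand). It read 8.09, 8.24 and 8.10 in shock and 7.77, 7.81 and 7.86 in female. The arrays within each group lay close together and the groups did not overlap. The difference was 0.33 (SE 0.10, limma adjusted p = 0.0404), of the same size without female replicate 2 (0.33), and it was called in 1 of the 6 leave-one-out fits. A probe set ending 5688 bases upstream was also called, at 0.49 (adjusted p = 0.0374), and the one ending 6943 bases upstream was not, at -0.07 (adjusted p = 0.678).

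Foxp1, a forkhead factor of striatal and cortical neurons, did not pass at its representative. It read 9.89, 9.78 and 9.82 in shock and 10.31, 10.08 and 10.01 in female. The female arrays all lay above the shock arrays, at a difference of -0.30 (SE 0.11, adjusted p = 0.0731). Of its 6 tested probe sets, 5 were below 0, and 1 was called, at -0.56 (SE 0.10, limma adjusted p = 0.00867), where shock read 6.54, 6.48 and 6.55 and female 7.04, 7.19 and 7.03. The groups did not overlap at the called probe set either.

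Bcl11b, which encodes the zinc finger factor CTIP2 of subcortical projection and striatal neurons, read 11.42, 11.28 and 11.46 in shock and 11.24, 10.85 and 11.08 in female. The groups did not overlap, and the difference was 0.33 (SE 0.12, adjusted p = 0.0740). At another probe set of Bcl11b, 3564 bases upstream of the most 3' one, female was higher, at -0.58 (SE 0.13, limma adjusted p = 0.0185), with 8.30, 8.43 and 8.63 in shock and 8.998, 8.85 and 9.23 in female. In its relative Bcl11a the representative differed by 0.05 (adjusted p = 0.775), while a probe set whose aligned stretch ends 361 bases upstream gave -0.71 (SE 0.11, limma adjusted p = 0.00664), from 8.64, 8.72 and 8.70 in shock and 9.24, 9.58 and 9.37 in female.

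Sox5, an SRY-box factor that times the birth of deep-layer neurons, read 7.56, 7.75 and 7.91 in shock and 7.89, 7.83 and 8.12 in female. These groups overlapped, with a difference of -0.21 (SE 0.12, adjusted p = 0.235). Tle4, a Groucho corepressor found in corticothalamic neurons, read 10.40, 10.16 and 10.32 in shock and 10.17, 9.64 and 10.25 in female. Its difference of 0.27 (SE 0.16, adjusted p = 0.227) was 0.08 without female replicate 2. Cux2, a homeobox gene of upper layers, differed by 0.08 (adjusted p = 0.554), and its probe set ending 1824 bases upstream was called at -0.32 (adjusted p = 0.0490). Pou3f2, a POU factor, differed by 0.09 (adjusted p = 0.517). Mef2c, an activity-responsive MADS-box factor, differed by -0.0089 (adjusted p = 0.970), and none of its 5 tested probe sets was called.

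Of 10 subpallial and GABAergic factors 2 were called, both higher in shock, and the median difference was 0.33 (0.17 without female replicate 2). Tshz1, a zinc finger gene that marks intercalated cells and their precursors, has its representative aligned to chromosome 18 (84011626 to 84016244, minus strand). It read 9.13, 9.01 and 9.03 in shock and 8.40, 7.75 and 8.27 in female. All shock arrays lay above all female arrays, 1.88-fold on average. The difference was 0.91 (SE 0.16, limma adjusted p = 0.00832), it was 0.72 without female replicate 2, and it stayed called in 5 of the 6 leave-one-out fits. A dimmer probe set of Tshz1 gave 0.24 (adjusted p = 0.109), again with no overlap. In such RNA, fewer cells of a type and less RNA per cell cannot be told apart.

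Foxp2, a forkhead factor of intercalated, striatal and deep cortical neurons, has its representative aligned to chromosome 6 (15438393 to 15440090, plus strand). It read 7.76, 7.72 and 7.86 in shock and 7.34, 7.35 and 7.36 in female. The female arrays were almost equal, female replicate 2 among them, and the groups did not overlap. The difference was 0.43 (SE 0.10, limma adjusted p = 0.0175) with and without female replicate 2 (0.43), and it stayed called in 4 of the 6 leave-one-out fits. The probe set furthest towards the 3' end, 1108 bases on, gave 0.69 (SE 0.12, limma adjusted p = 0.00946), from 6.97, 6.63 and 6.72 in shock and 5.96, 6.04 and 6.25 in female. A second probe set of Foxp2 aligned to the same stretch as the representative gave 0.13 (adjusted p = 0.423), with groups that overlapped. On MAS5 values the representative of Foxp2 differed by 0.16 (adjusted p = 0.516).

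The Dlx homeobox genes, which direct GABAergic fate, did not pass. Dlx5 read 8.96, 9.28 and 9.21 in shock and 8.81, 8.36 and 8.89 in female, with no overlap and a difference of 0.46 (SE 0.15, adjusted p = 0.0538). Dlx2 read 8.81, 9.23 and 9.05 in shock and 8.77, 8.41 and 8.93 in female, which overlapped, and differed by 0.32 (SE 0.15, adjusted p = 0.143). Dlx1 read 8.90, 8.89 and 9.04 in shock and 8.78, 8.56 and 8.83 in female, with no overlap and a difference of 0.22 (SE 0.11, adjusted p = 0.161). In all 3 genes female replicate 2 was the lowest array, and without it the differences were 0.30, 0.18 and 0.14. Dlx6, next to Dlx5 in the genome, differed by -0.14 (adjusted p = 0.428).

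Lhx6, the LIM homeobox gene of interneurons from the medial ganglionic eminence, read 9.44, 9.65 and 9.67 in shock and 9.28, 8.54 and 9.56 in female. Its groups overlapped, and the difference of 0.45 (SE 0.22, adjusted p = 0.148) was 0.16 without female replicate 2. Meis2, a TALE homeobox gene of striatal and intercalated neurons, read 9.95, 10.36 and 9.94 in shock and 9.75, 9.74 and 9.79 in female, with no overlap and a difference of 0.33 (SE 0.13, adjusted p = 0.0845). Of its other probe sets, 2 were called higher in shock, at 0.35 (adjusted p = 0.0338) and 0.62 (adjusted p = 0.0437), and a bright one differed by -0.20 (adjusted p = 0.237). The probe set at 0.35 is aligned within the stretch of the representative, so it is no separate reading. The one at 0.62 lies 133001 bases upstream of the most 3' one. It was dim, at 7.31, 7.24 and 7.08 in shock and 6.77, 6.10 and 6.90 in female. Isl1, a LIM homeobox gene of striatal and cholinergic neurons, differed by 0.0050 (adjusted p = 0.984). A dimmer probe set of Isl1 aligned to the same stretch gave -0.54 (limma adjusted p = 0.0579), with groups that overlapped. Six3, a homeobox gene of striatal precursors, differed by -0.26 (adjusted p = 0.240), and its probe set 2038 bases upstream was called at -0.78 (adjusted p = 0.0287).

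Markers of cell types differed between the groups in several lists. The summed MAS5 signal of the 6 GABAergic markers ran from 24129 to 27653 in shock and from 20778 to 23408 in female, and 2 of them, Gad1 and Vip, were called higher in shock and 1, Pvalb, higher in female. The 6 markers of striatal or central amygdala neurons summed to between 1682 and 1833 in shock and between 2076 and 5269 in female, the last in female replicate 2. All 5 tested ones were below 0, with a median of -0.66, and 1, Ppp1r1b, was called. For the 5 glutamatergic markers the sum ran from 7817 to 8613 in shock and from 9323 to 9840 in female, and 2 (Slc17a7 and Camk2a) were called higher in female and 1 (Slc17a6) higher in shock. Of all the marker lists, Neurod6, Tbr1 and Prox1 (a dentate marker) are also members. The 4 general neuronal markers summed to between 31056.5 and 38461 in shock and between 33630 and 37108 in female, which overlapped, and 1, Tubb3, was called higher in female. Oligodendrocyte markers summed to between 19644 and 23337 in shock and between 24012 and 30342 in female, and 2 of 5 (Mag and Cnp) were called higher in female. Microglial markers summed to between 2063 and 2317 in shock and between 1935 and 3211 in female, all 4 tested were below 0, and C1qb and Tmem119 were called higher in female. Endothelial markers summed to between 580 and 672 in shock and between 699.6 and 1099 in female, with Cldn5 called higher in female. Markers of dentate neurons summed to between 4377 and 5494 in shock and between 3026 and 3703 in female, with Calb1 called higher in shock. Of the other markers of this list, Prox1 was not called, at -0.14 (limma adjusted p = 0.448), and Dsp was not tested. Calb1 was much the brightest, with a mean RMA value of 11.30 in shock against 7.41 for Prox1 and 5.88 for Dsp. Astrocyte markers summed to between 12845 and 14606 in shock and between 9524 and 14201 in female, and limma called none of the 5. Female replicate 2 was the lowest female array in the GABAergic, dentate and astrocyte sums. In the striatal or central amygdala, oligodendrocyte, microglial and endothelial sums it was the highest. The part of cell makeup in the results was not tested.

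Patterning and maturation factors had 2 of 12 tested called, both higher in shock, and a median of 0.27 (0.17 without female replicate 2). Eya1, a phosphatase and transcriptional cofactor, has its representative aligned to chromosome 1 (14168953 to 14169436, minus strand). It read 8.27, 8.18 and 8.42 in shock and 7.55, 6.70 and 7.62 in female. All shock arrays lay above all female arrays, and the difference of Eya1 was the largest among the 40 representatives, 1.00 (SE 0.21, limma adjusted p = 0.0156). Without female replicate 2, which was lowest, it was 0.71, and it stayed called in 3 of the 6 leave-one-out fits.

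Dach1, a nuclear cofactor that acts with Eya proteins, has its representative aligned to chromosome 14 (97786846 to 97787999, minus strand). It read 8.21, 8.32 and 8.36 in shock and 7.95, 7.58 and 7.89 in female. The groups did not overlap, and the difference was 0.49 (SE 0.12, limma adjusted p = 0.0231), or 0.38 without female replicate 2. It stayed called in 3 of the 6 leave-one-out fits.

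**Figure D2:**
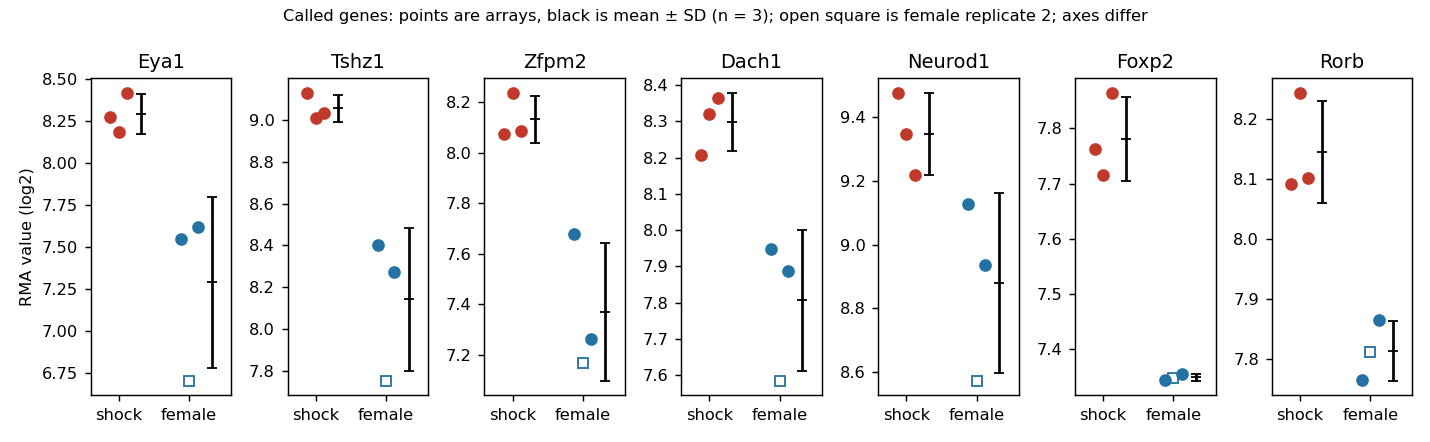
RMA values (log2, y axis, a separate scale for each gene) of the 7 genes called higher in shock, with each array as a point and the mean ± SD of 3 arrays in black. Female replicate 2, the open square, is the lowest array in 5 of the 7 genes, and Foxp2 and Rorb are the exceptions.

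The orphan nuclear receptors Nr2f1 and Nr2f2 (COUP-TFI and COUP-TFII), which set areal and interneuron identity, did not pass at their representatives. Nr2f2 read 11.44, 11.60 and 11.54 in shock and 11.42, 10.95 and 11.25 in female, with no overlap and a difference of 0.32 (SE 0.13, adjusted p = 0.10). Nr2f1 read 11.17, 11.51 and 11.37 in shock and 11.29, 10.97 and 10.96 in female, with a difference of 0.27 (SE 0.13, adjusted p = 0.140). Nr2f2 was the 1 member with probe sets called in opposite directions. The one furthest 3' read 7.81, 7.83 and 7.77 in shock and 6.98, 6.34 and 7.18 in female, a difference of 0.97 (SE 0.18, limma adjusted p = 0.0116). The one 12960 bases upstream of it read 6.58, 6.44 and 6.42 in shock and 6.86, 6.92 and 6.77 in female, a difference of -0.37 (SE 0.10, limma adjusted p = 0.0315). Neither pair of groups overlapped. The upstream probe set is aligned to 70364909 to 70366397, wholly upstream of the stretch of the representative (70352619 to 70360592). Whether it reads the same transcript was not tested.

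Inhibitors of DNA binding, Id2 and Id4, which block basic helix-loop-helix factors, did not pass at their representatives. Id2 read 9.94, 9.91 and 9.98 in shock and 9.83, 9.37 and 9.58 in female, with no overlap and a difference of 0.35 (SE 0.12, adjusted p = 0.0660). Its second tested probe set was called the other way, at -0.63 (SE 0.14, limma adjusted p = 0.0163), from 7.57, 7.89 and 7.94 in shock and 8.31, 8.64 and 8.34 in female. The direction of Id2 thus depended on the probe set. Id4 read 9.85, 9.85 and 9.91 in shock and 9.73, 9.38 and 9.68 in female, a difference of 0.28 (SE 0.12, adjusted p = 0.107). This probe set of Id4 is aligned to the strand opposite to the other 3 in the authors' table, which gave 0.22, 0.10 and -0.47, none called.

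The nuclear factor I genes, which act in late neuronal maturation and in glia, differed among themselves. Nfib read 11.10, 11.20 and 11.38 in shock and 11.19, 10.24 and 10.90 in female, and its difference of 0.45 (SE 0.21, adjusted p = 0.134) was 0.18 without female replicate 2. Nfia differed by 0.06 (adjusted p = 0.789) and Nfix by -0.19 (adjusted p = 0.337). All 5 tested probe sets of Nfix were below 0, and 2 were called higher in female, at -0.71 (adjusted p = 0.00750) and -0.96 (SE 0.10, limma adjusted p = 0.00401). The latter read 8.32, 8.30 and 8.23 in shock and 9.16, 9.28 and 9.29 in female, and had the smallest adjusted p of the 116 tested probe sets. Of the 6 probe sets of Nfia, 2 were called higher in female, and of the 7 of Nfib 1 was, at -0.60 (adjusted p = 0.00707).

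Zbtb20, a zinc finger repressor of hippocampal and astrocyte development, read 10.73, 10.70 and 10.87 in shock and 11.08, 10.92 and 11.07 in female. Female arrays lay above shock arrays, at a difference of -0.26 (SE 0.10, adjusted p = 0.0937), which was called without female replicate 2 at -0.31 (adjusted p = 0.0420). Of its 8 tested probe sets 7 were below 0 and 2 were called, at -0.70 (adjusted p = 0.00506) and -0.94 (adjusted p = 0.00640), while the most 3' one was at 0.59 (adjusted p = 0.0559). Prox1, the homeobox gene of dentate granule cells and some interneurons, differed by -0.14 (adjusted p = 0.448). Sox11, an SRY-box gene of young neurons, differed by 0.13 (adjusted p = 0.451), with none of its 5 probe sets called. Meis1, a TALE homeobox gene, lay under the filter and was not tested, at 6.03, 6.04 and 5.998 in shock and 5.62, 5.62 and 5.72 in female. Those groups did not overlap, and its difference was 0.37.

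Across all their probe sets the members did not show the direction of their brightest ones. Of 116 tested probe sets, 28 (24.1%) were called, against 20.8% of all probe sets, with 12 higher in shock and 16 higher in female. Of all probe sets 9.31% passed towards shock and 11.5% towards female. Groups did not overlap at 52 of the 116 (28 with shock higher and 24 with female higher), or 44.8%, against 47.7% of all probe sets (24.6% and 23.1%). The 40 representatives had 7 calls, all towards shock, and a median of 0.27. The other 76 had 5 towards shock, 16 towards female and a median of -0.12. Over all genes the corresponding medians were 0.06 and -0.04, and calls towards female took 9.40% of representatives and 14.7% of the others. Of 27 members with more than 1 tested probe set, 20 had probe sets of both signs. In 13 members a probe set other than the brightest was called higher in female, and in 7 of these the brightest was above 0.

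**Figure D3:**
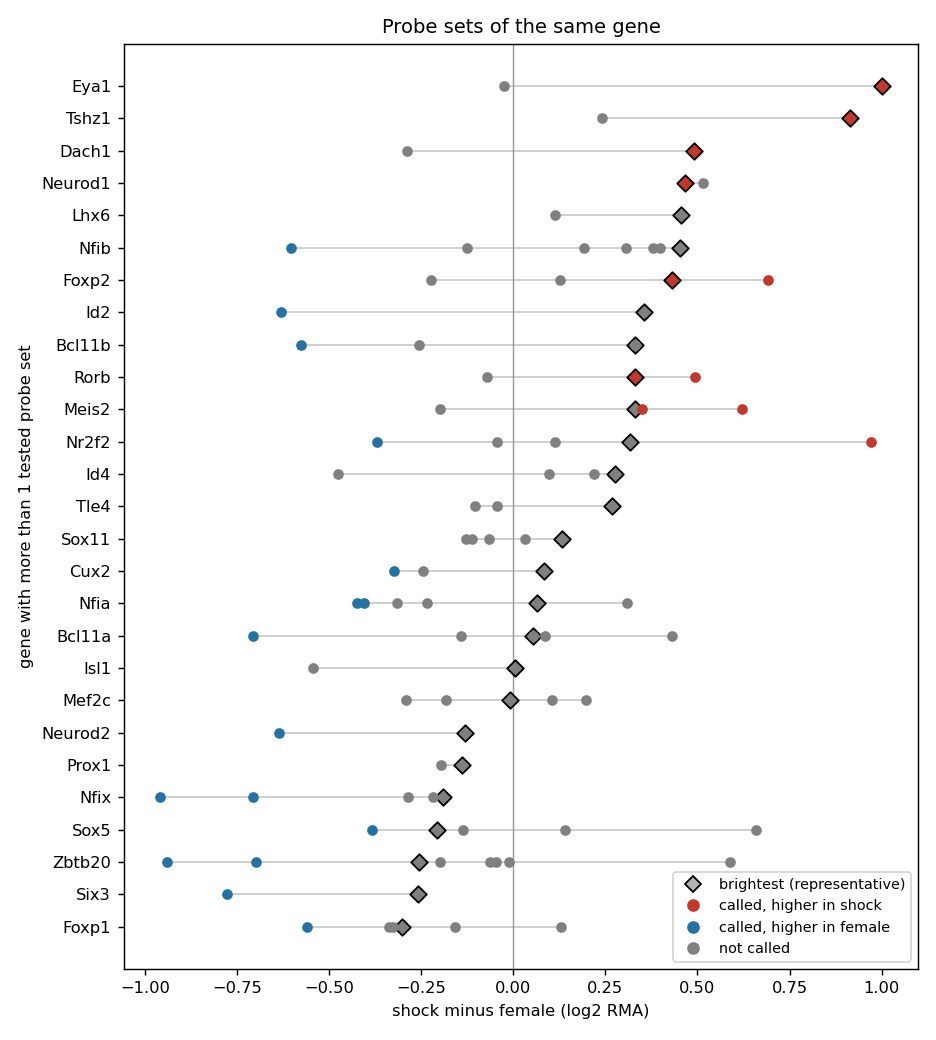
Difference between shock and female (log2, x axis) at every tested probe set of the 27 genes with more than 1, ordered by the brightest probe set, drawn as a diamond. Red and blue mark probe sets called higher in shock and in female, and lines join probe sets of a gene, which cross 0 in 20 of the 27.

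Signal at the 5' end was set against signal at the 3' end within each gene. In 14 members with a 5' and a 3' probe set 500 to 20000 bases apart, the 5' minus 3' signal differed by group in 8 (limma, adjusted over 2751 genes), against 30.0% of all such genes. It was lower in shock in 7 of the 8, Nr2f2, Sox5, Eya1, Foxp2, Dach1, Six3 and Neurod2, and higher in 1, Nfix. Among all genes 26.9% were called lower in shock and 3.05% higher. The median of this contrast was -0.51 over the 14 members and -0.29 over all 2751 genes. Without shock replicate 1 no gene of the 2751 was called. Without shock replicates 2 and 3, 5 and 3 members were called, beside 14.2% and 3.85% of all such genes. Without female replicates 1, 2 and 3 the counts were 7, 8 and 10, beside 31.7%, 28.6% and 30.9%. With no filter on dim signal 4 of 14 were called (Dach1, Nfix, Nr2f2 and Six3), beside 20.1% of 4161 genes. With the filter at the 60th percentile 2 of 9 were (Neurod2 and Nfix), beside 562 of 1758 genes.

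In Eya1 the 5' minus 3' signal was -1.85 ± 0.18 in shock and -0.82 ± 0.52 in female (SD, n = 3), a contrast of -1.03 (SE 0.22, limma adjusted p = 0.0141). Its 3' probe set differed between the groups by 1.00, and the one 1689 bases upstream by -0.02. In Dach1 the values were -1.64 ± 0.23 and -0.86 ± 0.49, a contrast of -0.78 (SE 0.22, limma adjusted p = 0.0253), over 1139 bases. Foxp2 gave -0.39 ± 0.25 and 0.52 ± 0.17, a contrast of -0.91 (SE 0.17, limma adjusted p = 0.0117). The directions at the 2 ends of Dach1 and of Foxp2 were opposite, with -0.29 and -0.22 at the 5' end, neither called.

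Nr2f2 had the widest contrast, -1.34 (SE 0.22, limma adjusted p = 0.0110), and in Sox5 it was -1.04 (SE 0.21, adjusted p = 0.0121). The 5' probe set of Nr2f2 is the one aligned upstream of its representative's stretch, which may read another transcript. In Sox5 the 5' end was called higher in female (-0.38, adjusted p = 0.0285) and the 3' end was at 0.66 (adjusted p = 0.0634). Six3 and Neurod2 were below 0 at both ends, with contrasts of -0.52 (adjusted p = 0.0264) and -0.50 (adjusted p = 0.0401). Nfix ran against the rest, at 0.77 (SE 0.18, limma adjusted p = 0.0160), with its 3' probe set at -0.96. The contrasts of Rorb (-0.40, adjusted p = 0.0676), Bcl11b (-0.59, 0.0609), Lhx6 (-0.34, 0.212), Sox11 (-0.20, 0.323), Mef2c (-0.17, 0.391) and Prox1 (0.06, 0.809) did not pass. With each array's 5' minus 3' signal added to the fit no member was called, nor was any other gene (limma; at an unadjusted p under 0.05, 6 members were higher in shock and 4 in female). That signal did not overlap between the groups, so this fit cannot separate it from group. Calls lost here therefore do not show its part. In this fit the median of the members was 0.05, with 24 of 40 above 0. Neurod6 was at -0.84 and Neurod2 at -0.53, neither called. The 7 genes called in the main fit had differences from 0.05 (Neurod1) to 0.57 (Zfpm2), all above 0, with limma adjusted p from 0.317 to 0.945. Tshz1 was at 0.39, Eya1 at 0.23, Foxp2 at 0.41 and Rorb at 0.38.

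**Figure D4:**
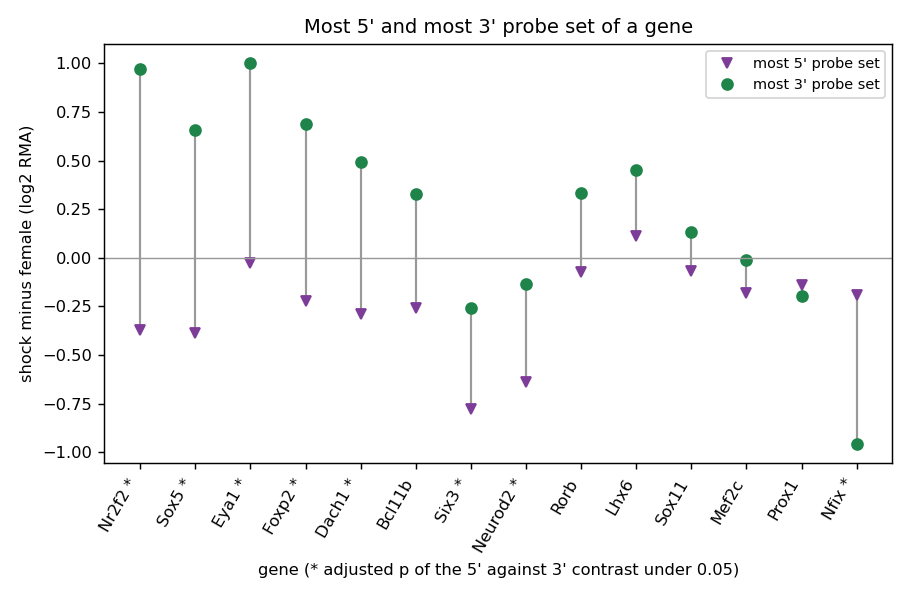
Difference between shock and female (log2, y axis) at the most 5' probe set (triangle) and the most 3' probe set (circle) of the 14 genes with both, ordered by the contrast between them. In 12 of the 14 genes the triangle lies below the circle, and Nfix has the widest gap the other way.

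Related factors outside the list were described in the same way. Of 52 paralogues and partners of the members, 50 had a probe set and 40 were tested, of which 2 passed towards shock and 5 towards female, while 33 did not pass, with a median of 0.03. The share called, 17.5%, equalled that of the members, beside 20.0% of all genes. Tcf12, an E protein that pairs with helix-loop-helix factors, was higher in shock by 0.47 (adjusted p = 0.0371). The MADS-box gene Mef2d, a paralogue of Mef2c, was higher in female, at 9.34, 9.68 and 9.55 in shock and 10.07, 10.50 and 10.08 in female (-0.70, SE 0.14, limma adjusted p = 0.0141). Also higher in female were Id1 at -0.61 (adjusted p = 0.0226), Nfic at -0.49 (0.0259), Tcf3 at -0.41 (0.0352) and Lhx9 at -0.37 (0.0360). Nfic and Id1 are paralogues of members whose representatives were not called.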

How the data were processed

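RNA bound by FLAG-tagged PABPC1 was measured on 6 arrays, and each array was deposited as 2 samples. The deposited RMA values are on a log2 scale, and the deposited MAS5 values are linear intensities, per the file headers and the submitters' processing notes; no source used here gives versions or a genome build. A deposited table of the authors' comparison gives a signed fold (negative where shock is higher, kept here as a score), a p-value and an FDR, per the file headers. The members and gene lists were chosen with earlier results of these data known.

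Control probe sets (64) were left out. The 27022 probe sets with a mean RMA value above the 40th percentile (6.31) were fitted with limma 3.58.1 in R 4.3.3, shock minus female, with Benjamini-Hochberg adjustment and a threshold of 0.05. The probe set of highest mean signal stood for a gene. The 5' minus 3' difference was fitted in the same way over 2751 genes. MAS5 intensities were used as log2(value + 16). All members could be named; full values went to the called ones and to the others with the smallest p. Code was tested on simulated data. Other filters, normalizations, probe set rules, array weights, a covariate and leaving out each array were tried. The values of 1 related gene are not reported here.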

Additional observations from a re-analysis of the deposited data

How the results depend on the processing

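With 3 arrays a group, counts of calls depended on single arrays and on the summary. Of 675 values of members under alternatives, 551 kept their direction and side of the threshold, 48 lost the call, 24 gained it and 52, in 23 members, changed sign. None of the 7 called members changed sign, and 51 of the 52 were called in neither fit; the exception was Id2 at its most 3' probe set (-0.63, called). Called probe sets numbered 5614 and were 543 on MAS5 values with 16 added (33 higher in shock, 510 higher in female), 277 with 1 added, 8752 with array weights, 1 with the 5' to 3' covariate and 321 to 6756 without 1 array. Of the members' 116 tested probe sets, 28 were called, beside 5614 of all 27022. These calls became 4 and 2 on MAS5 values, 46 with weights, 0 with the covariate and 2 to 36 without 1 array. Called members (7) became 0 on both MAS5 scales, 16 with weights, 0 with the covariate and 0 to 14 without 1 array. Called partners (7) became 1 and 0 on MAS5 values. With the filter at the 60th percentile 4 of 30 partners were called, beside 22.2% of all genes. Called partners were 11 of 40 with weights (beside 32.1% of all genes), 0 with the covariate and 0 to 8 without 1 array. Genes called for the 5' minus 3' difference (824) were 0 to 872 without 1 array. The median of the members was 0.05 with the covariate, which cannot be separated from group, and 0.06 with all probe sets of a gene averaged. The signs that changed with the covariate were those of Neurod6 (-0.84), Emx1 (0.056), Fezf2 (-0.12), Lhx2 (-0.079), Tle4 (-0.29), Bcl11a (-0.31), Pou3f2 (-0.12), Mef2c (0.42), Dlx6 (0.20), Lhx6 (-0.22), Six3 (0.25), Isl1 (-0.22), Prox1 (0.24), Nfib (-0.19), Id4 (-0.0013) and Sox11 (-0.22). With array weights they were Emx1 (0.0010), Lhx2 (-0.048), Bcl11a (-0.046), Mef2c (0.19) and Isl1 (-0.11). On MAS5 values with 16 and with 1 added they were Lhx2 (-0.21 and -0.22), Mef2c (0.16 and 0.16) and Isl1 (-0.065 and -0.068), and with further quantile normalization Lhx2 (-0.038). Averaged probe sets changed Cux2 (-0.16), Bcl11a (-0.038), Bcl11b (-0.043), Sox5 (0.014), Isl1 (-0.27), Nfia (-0.17), Id2 (-0.14) and Sox11 (-0.028), and the most 3' probe set also Sox5 (0.66), Meis2 (-0.20) and Zbtb20 (0.59). Without 1 array the values of 6 members crossed 0 in at least 1 fit, Emx1 (-0.057 to 0.015), Lhx2 (-0.063 to 0.072), Bcl11a (-0.086 to 0.15), Mef2c (-0.14 to 0.16), Isl1 (-0.19 to 0.11) and Nfia (-0.13 to 0.19). Whether replicate numbers pair the samples could not be settled from 3 arrays a group. Deviations of same-numbered arrays correlated at 0.01, 0.21 and 0.15, and not every array correlated best with its own number. With the replicate block 7120 probe sets were called, 33 of them of members. That fit also called 8 members (20.0%), beside 25.6% of all genes, and 1218 genes for the 5' minus 3' difference. Causes were not tested.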
